A study of Mus musculus with 12 samples.

Results

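The 40 genes described here run the cell division cycle. They were taken by name from a list of 41 symbols, in which Cdk1 and its older name Cdc2a stand for the same gene, and every probe that carried such a name was used. The arrays held 54 probes for them among 55681 distinct probes outside the controls. Testing needed a probe that the scanner software scored well above background on each of the 3 arrays of some group. Such a probe existed for 32 of the 40 genes (36 of the 54 probes), among 22128 genes tested in all. The members comprised 8 cyclins and partners, 8 genes of replication licensing, 3 of the replication fork and nucleotide supply, 2 transcription factors, 8 mitotic kinases and checkpoint proteins, 7 spindle proteins, 2 partners of the anaphase-promoting complex and 2 chromosome proteins.

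RNA came from whole livers of untreated BALB/c mice in 4 groups of 3 arrays each, which the labels describe as biological replicates. The groups were mice with a knockout of interleukin-18 (Il18), a cytokine that activates NK and T cells, at 12 weeks of age, wild type mice of 12 weeks, Il18 knockout mice of 6 weeks and wild type mice of 6 weeks. The labels give neither the sex of the animals, the hour at which they were killed, nor how the knockout allele was made. The array platform was 1-colour, so a level below is log2 of the processed signal minus the 75th percentile of that array, and levels are compared between groups for 1 gene, not between genes. In bulk liver RNA, fewer cells of a type and less RNA per cell cannot be told apart.

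A dividing cell passes through G1, copies its DNA in S phase, and separates the copies in mitosis. Cyclins and their kinases drive each step, the Mcm proteins open the DNA at origins, and the anaphase-promoting complex ends mitosis by marking cyclin B for destruction. Most hepatocytes of a grown liver are outside the cycle and can return to it after injury, while blood cells and immune cells in the organ may also divide.

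Transcription of the mitotic genes is known to depend on promoter elements called CCAAT boxes and the cell cycle genes homology region (CHR), and that of the replication genes on E2F sites. RefSeq promoter windows on GRCm38.p6, 250 bases before to 50 after each gene start, were at hand for 32 of the 40 members in 34 windows. TTTGAA (CHR) on either strand was found in 16 of the 34 windows (47.1%), against 17.9% of all 32851 windows. CCAAT was found on either strand in 27 windows of members (79.4%) and in 37.4% of all windows, and the CHR together with CCAAT in 47.1% and 6.95%. The E2F forms TTTCCCGC or TTTGGCGC were found in 6 windows of members (17.6%) and in 1.56% of all. These matches are descriptions of letters in a window. A match of 1 kind can share letters with another, which happened for 1 pair of matches in the 34 windows. Ccnb2, Cdc20 and Aurka, printed below, hold both the CHR letters and CCAAT. Ccnb1 and Cenpe, not printed, hold CCAAT and no CHR letters. The windows of 5 members, picked after the levels were seen, follow, 5′ to 3′ on the gene's strand, with these motifs in capitals on either strand.
Ccnb2, chr9:70421505-70421804, minus strand: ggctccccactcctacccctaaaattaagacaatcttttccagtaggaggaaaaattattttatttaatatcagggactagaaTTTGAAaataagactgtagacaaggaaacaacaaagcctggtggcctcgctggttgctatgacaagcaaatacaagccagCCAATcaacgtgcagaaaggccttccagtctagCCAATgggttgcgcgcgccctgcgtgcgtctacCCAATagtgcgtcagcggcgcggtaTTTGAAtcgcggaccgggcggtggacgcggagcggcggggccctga
Cdc20, chr4:118437294-118437593, minus strand: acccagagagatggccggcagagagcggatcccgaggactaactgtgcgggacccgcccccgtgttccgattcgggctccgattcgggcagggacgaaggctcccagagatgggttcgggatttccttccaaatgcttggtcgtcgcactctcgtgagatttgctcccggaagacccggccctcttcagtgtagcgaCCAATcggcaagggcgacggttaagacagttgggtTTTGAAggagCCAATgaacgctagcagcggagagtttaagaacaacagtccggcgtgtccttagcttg
Aurka, chr2:172370521-172370820, minus strand: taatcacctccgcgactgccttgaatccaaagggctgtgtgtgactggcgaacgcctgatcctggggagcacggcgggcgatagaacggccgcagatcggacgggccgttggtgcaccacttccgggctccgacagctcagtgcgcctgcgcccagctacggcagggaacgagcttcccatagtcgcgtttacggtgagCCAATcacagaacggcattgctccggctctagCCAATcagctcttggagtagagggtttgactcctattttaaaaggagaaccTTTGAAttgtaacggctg
Mcm7, chr5:138171834-138172133, minus strand: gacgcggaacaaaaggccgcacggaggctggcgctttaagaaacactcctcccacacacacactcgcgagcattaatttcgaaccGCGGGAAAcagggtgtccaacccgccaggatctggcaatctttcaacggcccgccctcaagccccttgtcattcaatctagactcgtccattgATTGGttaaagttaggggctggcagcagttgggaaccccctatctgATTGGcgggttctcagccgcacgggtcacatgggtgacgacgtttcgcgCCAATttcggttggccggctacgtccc
Ccne1, chr7:38107441-38107740, minus strand: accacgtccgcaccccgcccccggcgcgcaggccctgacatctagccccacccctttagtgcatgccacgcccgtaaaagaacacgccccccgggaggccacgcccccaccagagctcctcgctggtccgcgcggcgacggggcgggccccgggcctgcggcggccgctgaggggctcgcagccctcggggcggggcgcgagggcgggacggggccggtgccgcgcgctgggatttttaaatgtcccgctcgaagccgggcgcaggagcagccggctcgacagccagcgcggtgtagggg

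Positions are those of a match's first base, with negative ones before the start. Ccnb2 held CCAAT at -87, -54 and -21 and the CHR letters at -167 and 5. Cdc20 had the CHR letters at -18, between CCAAT at -53 and -8. In Aurka CCAAT lay at -51 and -19 and the CHR letters at 33. The printed Mcm7 window is 1 of 2 of that gene. It had an E2F form at -165 and CCAAT on either strand at -72, -26 and 24. Ccne1, shown because its 6-week difference ran opposite to that of the other printed genes, held none of the letters searched.

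**Figure D1:**
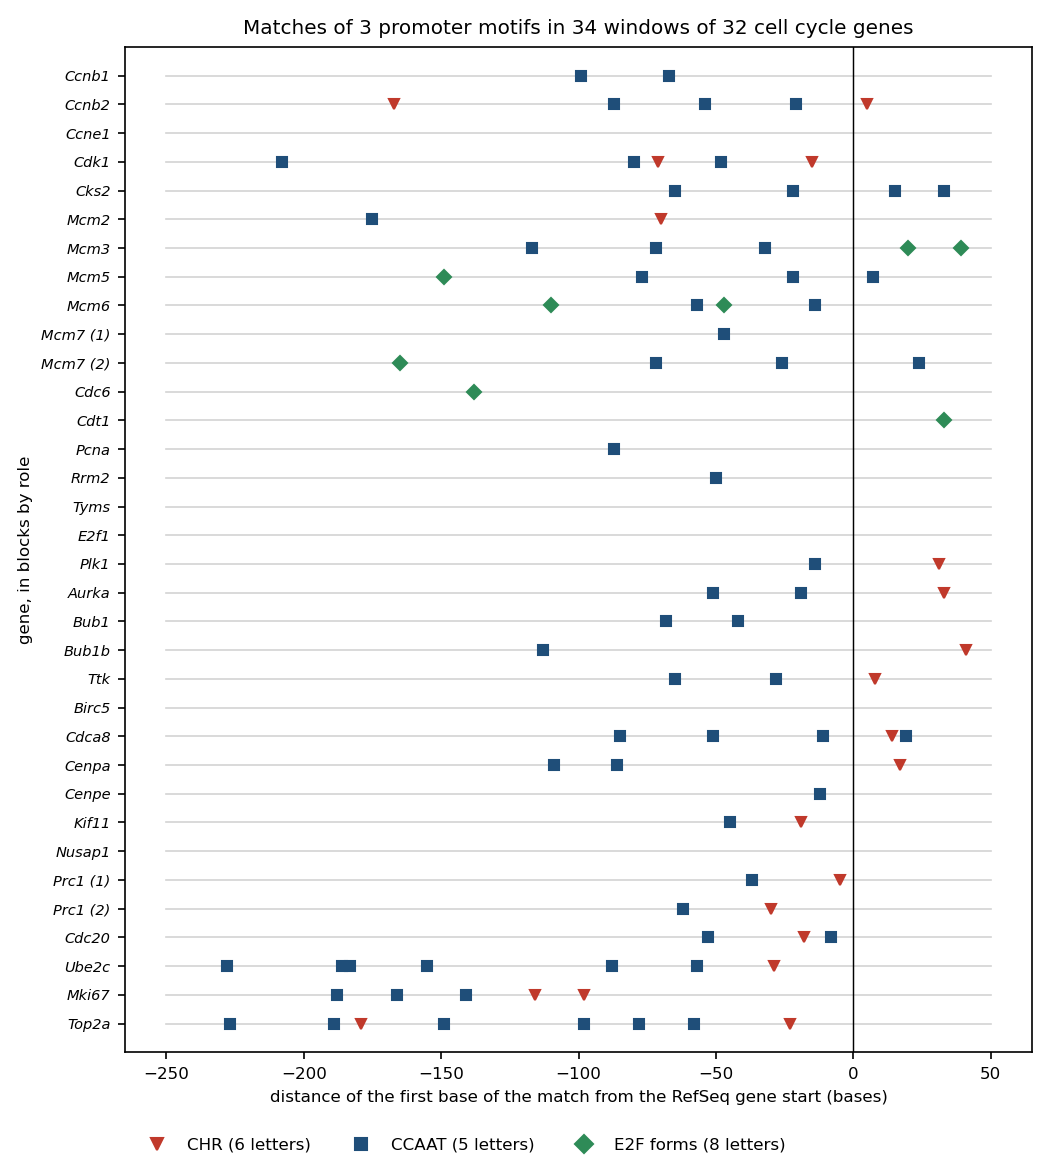
Position of each motif match (horizontal axis, bases from the RefSeq start) in the 34 windows of 32 members (rows, by role). Red triangles are the CHR, blue squares CCAAT and green diamonds the E2F forms; the green marks lie in windows of Mcm3, Mcm5, Mcm6, Mcm7, Cdc6 and Cdt1, all genes of replication licensing.

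Il18 itself was measured at -0.03, -0.12 and 0.04 in knockout livers of 12 weeks against 2.25, 2.15 and 2.49 in wild type livers of 12 weeks, and at -0.02, -0.04 and -0.37 in knockout livers of 6 weeks against 2.44, 2.41 and 2.35 in wild type livers of 6 weeks. The knockout arrays lay below every wild type array at both ages. All 8 hepatocyte markers listed were well above background on every array. The arrays came from 2 slides. Slide 1 carried 4 arrays, all 3 of 6-week wild type and the first replicate of 12-week wild type, and slide 2 carried the other 8. At 6 weeks the genotypes thus lie on different slides and the 2 cannot be told apart without the 12-week wild type arrays, while the comparison between ages in the knockout lies within slide 2. The 75th percentile signal was 349 to 420 scanner units per array, 50.1% to 57.7% of spots were well above background, and the number of arrays limits the precision.

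Of the 13 tested genes of mitosis (kinases and their partners, spindle, anaphase-promoting complex and Mki67), 11 had their highest group mean in wild type livers of 12 weeks and 11 their lowest in wild type livers of 6 weeks. Of the 32 genes tested, 20 had their highest level of all arrays on replicate 3 of the 12-week wild type and 12 had their lowest on replicate 1 of the 6-week wild type. That replicate 3 was the highest of its group for 13 of the 13 mitotic genes. Replicate 1 of the 12-week wild type, the array of that group on slide 1, was the lowest of its group in 12 of 13. The members' values thus share arrays that are high or low over many genes at once, and calls lost when 1 of the 12 arrays was left out are given beside them.

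**Figure D2:**
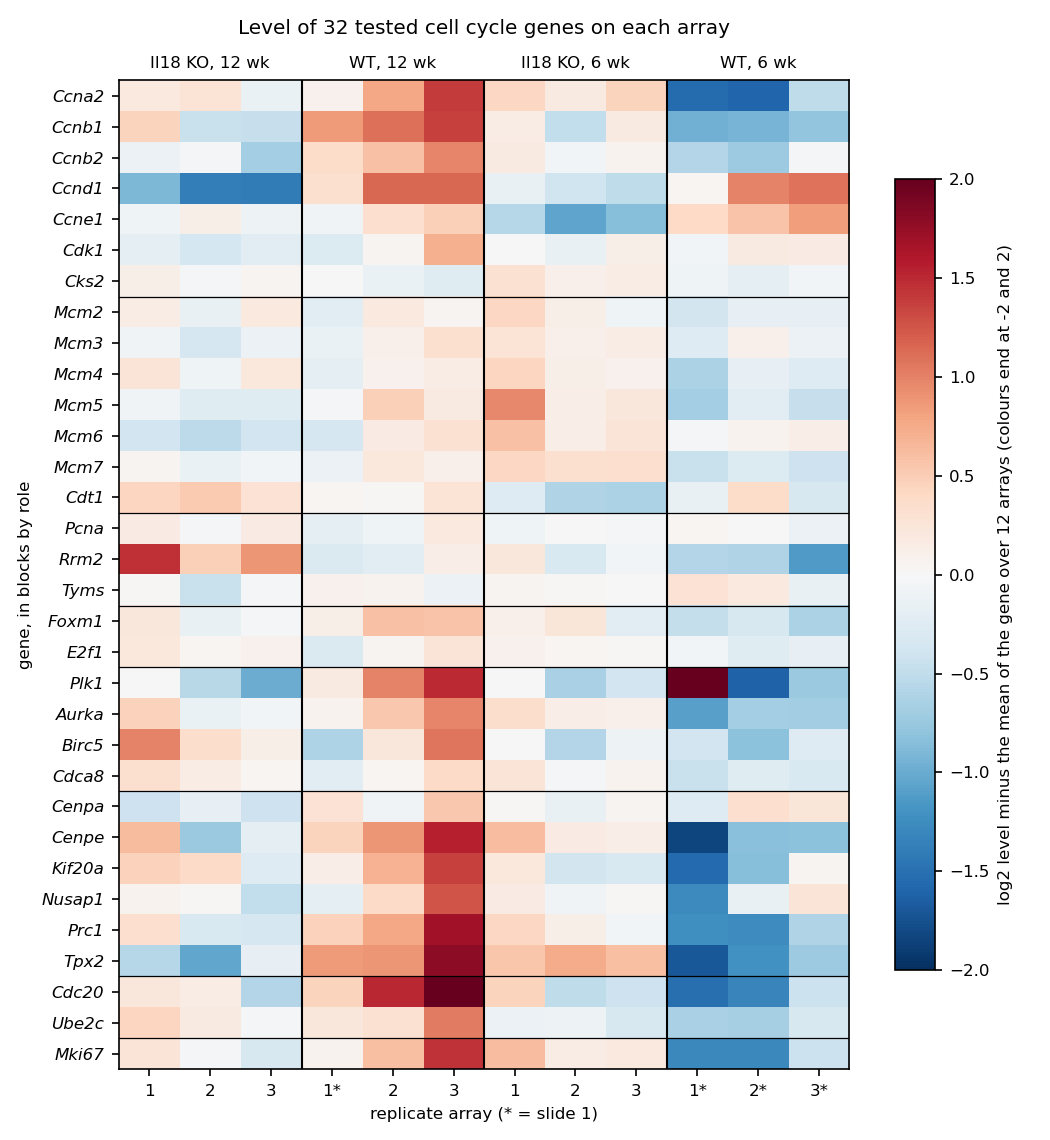
Level of each of the 32 tested members (rows, by role) on each of the 12 arrays (columns), as log2 level minus the gene's mean over the arrays. Red is above and blue below the mean; replicate 3 of 12-week wild type is the highest array for 20 of the 32 genes, and Ccnd1 is blue on all knockout arrays.

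In knockout livers of 6 weeks, 11 members were higher than in wild type livers of the same age and 2 were lower (limma, adjusted p over all genes under 0.05). That is 34.4% and 6.25% of the 32 tested, where 11.7% of all genes tested were higher and 9.35% lower. The genes that rose were Ccna2, Ccnb1, Cks2, Mcm4, Mcm5, Mcm7, Aurka, Cenpe, Prc1, Tpx2 and Mki67, and those that fell were the G1 cyclins Ccnd1 and Ccne1. The median log2 difference over the 32 genes was 0.43, against 0.02 over all genes tested. Leaving out 1 of the 6 arrays compared gave 6 to 10 calls, with 6 without replicate 1 of either genotype, while the share of all genes called fell to between 11.5% and 13.9%, against 21.1% with all arrays. The genotypes lie on different slides here: with slide as a fixed block no member was higher and 1 was lower (limma), beside 1.41% and 1.25% of all genes. With slide as a random block 3 members were called, beside 5.55% of all genes. At 12 weeks 1 member was higher in the knockout (3.12%) and 4 were lower (12.5%), beside 5.65% and 2.56% of all genes. Rrm2 rose and Ccnb1, Ccnb2, Ccnd1 and Tpx2 fell, and the median log2 difference was -0.41, against 0.01 over all genes. Without replicate 1 or 3 of the 12-week knockout 3 and 2 members were called. The share of all genes called fell likewise, to 3.30% and 3.07%, against 8.21% with all arrays.

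Between 12 and 6 weeks, 13 members rose in wild type livers and none fell at an adjusted p under 0.05 (limma); 40.6% of the tested members were higher, where 4.61% of all genes tested were higher and 4.43% lower. With slide as a fixed block 2 members, Ccnb1 and Tpx2, were called, and 728 of all genes in place of 1999. Tpx2 was admitted to testing by the 12-week wild type alone, so its call is not read as support. In the knockout 3 members rose and 3 fell with age, 9.38% each way, beside 3.98% of all genes higher and 2.93% lower. Ccne1, Cdt1 and Rrm2 rose and Mcm6, Mcm7 and Tpx2 fell, but without replicate 1, 2 or 3 of the 6-week knockout 2, 1 and 0 members were called, and 1 without any of the 12-week knockout arrays. The share of all genes called fell likewise, to between 2.84% and 4.14% in these fits, against 6.91% with all arrays. The difference of the genotype differences, 12 weeks minus 6 weeks, was called positive for 1 member (3.12%) and called negative for 12 (37.5%). Of all genes, 5.58% were called positive and 4.76% negative. By sign alone, called or not, the difference was positive for 5 members and negative for 27. Its median over the 32 genes was -0.79, against 0.01 over all genes. These comparisons share arrays: the 6-week wild type enters the first, the wild type age comparison and the difference, so their results are not independent of each other. Ccna2, Ccnb1, Plk1, Cenpe, Kif20a, Nusap1 and Tpx2 were tested although dim on some arrays, so that a group in which they were bright admitted them. Among the other 25, well above background on all 12 arrays, the calls at 6 weeks were 7 upward and 2 downward, and 8 rose with age in the wild type. At 12 weeks 1 of the 25 was higher and 2 lower, and 3 rose and 2 fell with age in the knockout. The difference between ages was called positive for 1 and called negative for 8. Their median log2 differences were 0.36 at 6 weeks, -0.28 at 12 weeks and -0.45 for the difference between ages. The shares of all genes given above were not recomputed for this stricter set.

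**Figure D3:**
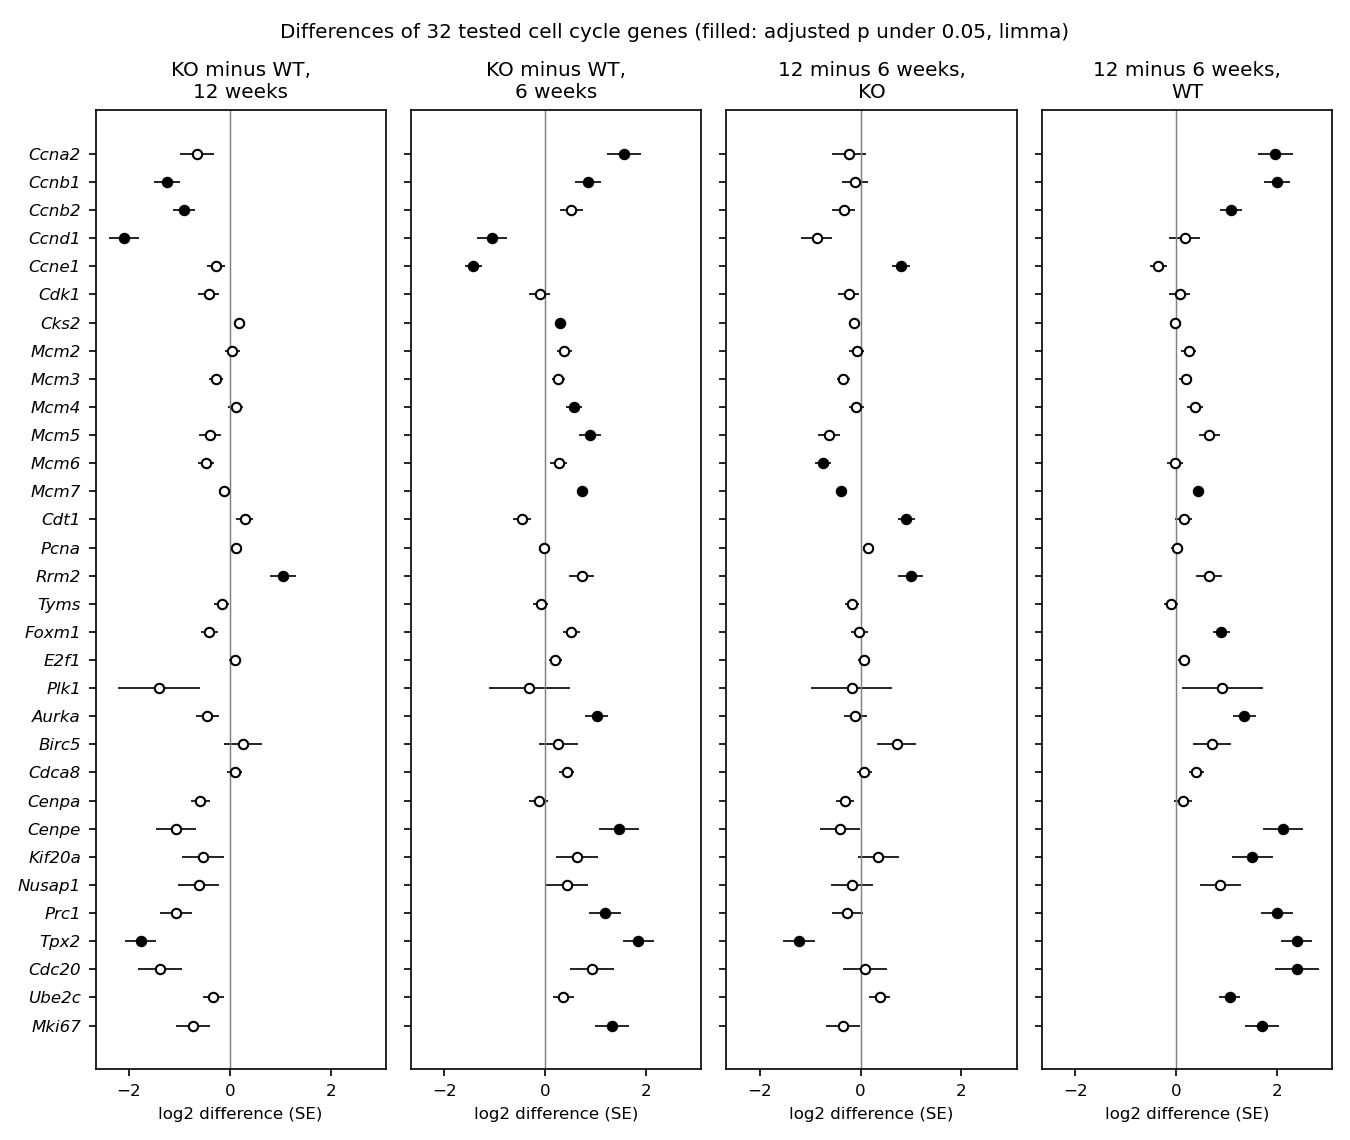
Log2 difference of each tested member (rows) in 4 comparisons (panels), with standard errors; filled points have an adjusted p under 0.05 (limma). The medians over the genes are 0.43 at 6 weeks, -0.41 at 12 weeks, 0.66 in the wild type age comparison and -0.15 in the knockout age comparison.

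Cyclin A2 (Ccna2), the partner of the S phase and early mitotic kinases, was measured at -2.18, -2.41 and -2.15 in knockout livers of 6 weeks, against -4.14, -4.18 and -3.11 in wild type livers of 6 weeks. In livers of 12 weeks its levels were -2.40, -2.31 and -2.72 in the knockout, against -2.50, -1.81 and -1.19 in the wild type. The genotypes did not overlap at 6 weeks and overlapped at 12, and the 6-week wild type arrays were the 3 lowest of the 12. Ccna2 was 2.95-fold higher in the 6-week knockout (log2 difference 1.56 ± 0.34 SE, adjusted p = 0.0118, limma) and differed by -0.64 ± 0.34 at 12 weeks (adjusted p = 0.274). It rose 3.92-fold with age in the wild type (1.97 ± 0.34, adjusted p = 0.00782). With slide as a block both calls were lost (0.56 ± 0.51, adjusted p = 0.615, and 1.30 ± 0.40, adjusted p = 0.113).

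Cyclin B1 (Ccnb1), which activates Cdk1 at the entry into mitosis, separated the genotypes at both ages. Its probe (chromosome 13, 101548722 to 101548781, mm9 per the files) was at -2.52, -3.41 and -3.42 in knockout livers of 12 weeks against -2.12, -1.87 and -1.60 in wild type livers of 12 weeks. At 6 weeks it was at -2.82, -3.45 and -2.78 in the knockout, against -3.92, -3.90 and -3.76 in the wild type. The genotypes did not overlap at either age, with the knockout below the wild type at 12 weeks and above it at 6 weeks. Ccnb1 was 2.39-fold lower in the knockout at 12 weeks (log2 difference -1.25 ± 0.26, adjusted p = 0.0186) and 1.79-fold higher at 6 weeks (0.84 ± 0.26, adjusted p = 0.0428). Leaving out 1 array lost these calls in 2 and 6 of 12 cases (adjusted p up to 0.0715 and 0.124), and slide as a block lost the 6-week call (0.46 ± 0.47, adjusted p = 0.658). The rise with age in the wild type was 3.99-fold (1.996 ± 0.26, adjusted p = 0.00202), and in the knockout the difference was -0.10 ± 0.26 (adjusted p = 0.882). That rise and the difference between ages of -2.10 ± 0.37 (adjusted p = 0.00637) passed the threshold under each of 22 and 21 alternative settings, slide as a block included. The other 2 probes of Ccnb1 were well above background on 1 and 2 arrays and were not tested.

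Cyclin B2 (Ccnb2), the second partner of Cdk1 in mitosis, was at -0.66, -0.57 and -1.23 in knockout livers of 12 weeks, against -0.18, 0.04 and 0.42 in wild type livers of 12 weeks. At 6 weeks the levels were -0.37, -0.60 and -0.48 in the knockout and -1.14, -1.27 and -0.59 in the wild type. The genotypes were apart at 12 weeks and overlapped at 6. Ccnb2 fell 1.88-fold in the 12-week knockout (-0.91 ± 0.22, adjusted p = 0.0361) and rose 2.13-fold with age in the wild type (1.09 ± 0.22, adjusted p = 0.0163). Leaving out 1 array lost the 12-week call in 6 of 12 cases (adjusted p up to 0.114) and the age call in 2 (up to 0.0597), which slide as a block also lost (0.82 ± 0.31, adjusted p = 0.186).

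Cyclin D1 (Ccnd1), the G1 cyclin that answers growth signals and pairs with Cdk4 and Cdk6, had a different pattern. It was at 0.99, 0.52 and 0.50 in knockout livers of 12 weeks, against 2.22, 3.04 and 3.04 in wild type livers of 12 weeks. The levels at 6 weeks were 1.75, 1.496 and 1.39 in the knockout, against 1.93, 2.88 and 2.99 in the wild type. Every knockout array was below every wild type array at both ages. Ccnd1 fell 4.28-fold in the 12-week knockout (-2.10 ± 0.30, adjusted p = 0.00443), a call kept under all 23 alternatives, and 2.08-fold in the 6-week knockout (-1.05 ± 0.30, adjusted p = 0.0347), a call lost in 5 of 12 cases with 1 array left out (adjusted p up to 0.109) and with slide as a block (-1.88 ± 0.47, adjusted p = 0.0744). Within slide 2 alone the 12-week difference was -2.37 ± 0.18 (adjusted p = 0.00307). Slide as a block gives the same 12-week difference, since both set aside the slide 1 array of that wild type group. They are thus not separate among the 23 alternatives. The genotype differences at the 2 ages were not shown to differ from each other (-1.04 ± 0.43, adjusted p = 0.155).

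Cyclin E1 (Ccne1), the partner of Cdk2 at the start of S phase, was at -0.77, -1.25 and -1.05 in knockout livers of 6 weeks, against 0.20, 0.38 and 0.63 in wild type livers of 6 weeks. Its 12-week levels were -0.28, -0.08 and -0.30 in the knockout and -0.26, 0.15 and 0.28 in the wild type. The 6-week knockout arrays were the 3 lowest of the 12. Ccne1 fell 2.69-fold in the 6-week knockout (-1.43 ± 0.17, adjusted p = 0.000625) and rose 1.74-fold with age in the knockout (0.80 ± 0.17, adjusted p = 0.0227; lost in 5 of 12 cases, up to 0.0898). The 6-week fall was also called with the slide as a block (-1.91 ± 0.26, adjusted p = 0.0103), the single member called there. At 12 weeks the genotype difference was closer to 0 and was not called (-0.28 ± 0.17, adjusted p = 0.354), and the 2 ages differed by 1.15 ± 0.24 (adjusted p = 0.0149).

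Cks2, a small subunit that binds the cyclin-dependent kinases, was at 0.87, 0.67 and 0.73 in knockout livers of 6 weeks, against 0.48, 0.38 and 0.51 in wild type livers of 6 weeks. At 12 weeks it was at 0.69, 0.55 and 0.63 in the knockout and 0.57, 0.44 and 0.33 in the wild type. The 6-week rise was 1.23-fold (0.30 ± 0.09, adjusted p = 0.0359), and leaving out 1 array lost the call in 7 of 12 cases (adjusted p up to 0.117), as did slide as a block (0.49 ± 0.14, adjusted p = 0.107). Cdk1, the kinase that the B cyclins activate, lay between -2.82 and -1.75 on all 12 arrays, and its genotype and age differences ran from -0.42 to 0.07 with no call.

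**Figure D4:**
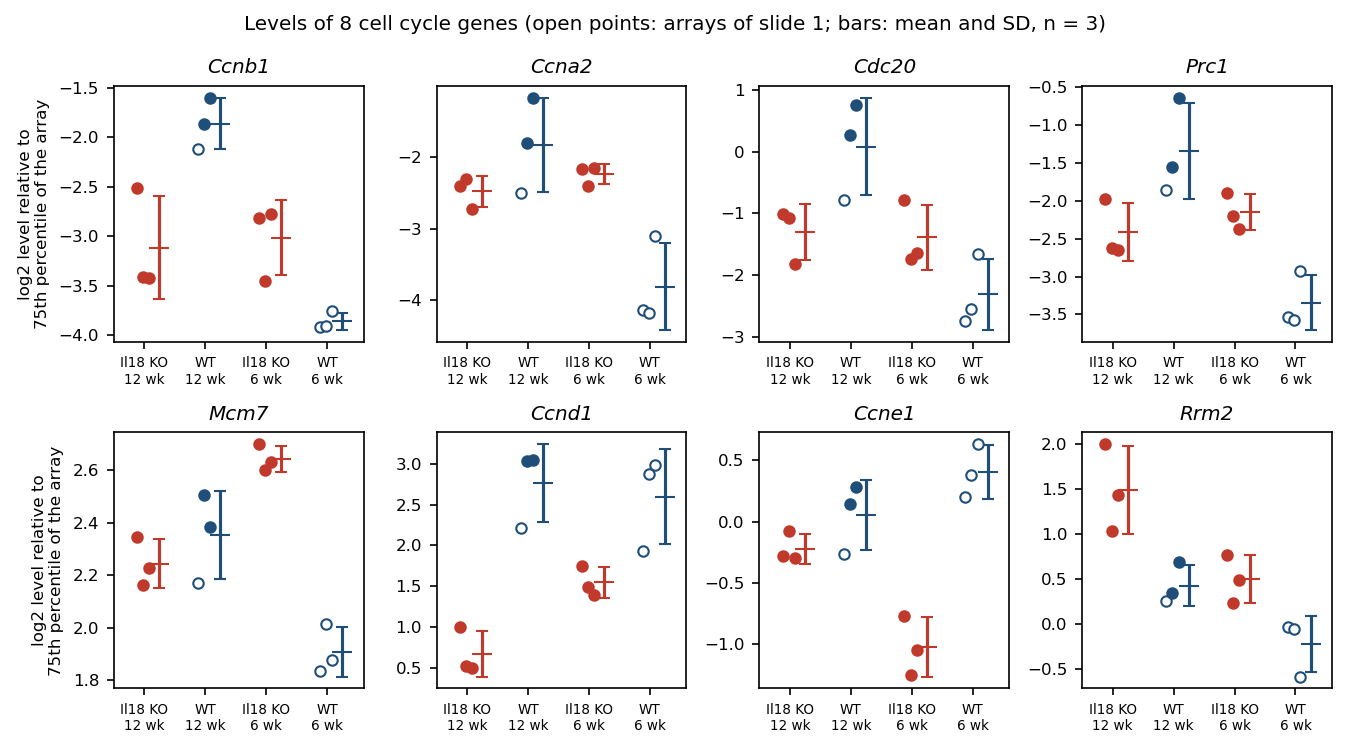
Log2 level of 8 members on each array, by group (knockout red, wild type blue; open points lie on slide 1; bars are mean and SD, n = 3). Ccnb1, Ccna2, Cdc20 and Prc1 are lowest in 6-week wild type and highest in 12-week wild type, Mcm7 is highest in 6-week knockout, Ccnd1 is low in the knockout at both ages, Ccne1 is low in 6-week knockout and Rrm2 is highest in 12-week knockout.

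The Mcm proteins 2 to 7 form the helicase that opens DNA at replication origins. Mcm7 was at 2.70, 2.60 and 2.63 in knockout livers of 6 weeks, against 1.84, 2.02 and 1.88 in wild type livers of 6 weeks. At 12 weeks its levels were 2.34, 2.16 and 2.23 in the knockout, against 2.17, 2.505 and 2.38 in the wild type. The 6-week knockout arrays were the 3 highest of the 12 and the 6-week wild type arrays the 3 lowest. Mcm7 was 1.66-fold higher in the 6-week knockout (0.73 ± 0.10, adjusted p = 0.00104), a call lost with slide as a block (0.46 ± 0.14, adjusted p = 0.123). With age it rose 1.36-fold in the wild type (0.44 ± 0.10, adjusted p = 0.0209) and fell 1.32-fold in the knockout (-0.40 ± 0.10, adjusted p = 0.0367), calls lost in 3 and 7 of 12 cases with 1 array left out (adjusted p up to 0.0729 and 0.131), and the wild type call also with slide as a block (0.26 ± 0.11, adjusted p = 0.235). The opposite course in the genotypes gave a difference of -0.84 ± 0.14 (adjusted p = 0.00485), which was called under all 21 alternatives.

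Mcm5 was at -0.44, -1.27 and -1.18 in knockout livers of 6 weeks, against -2.08, -1.62 and -1.87 in wild type livers of 6 weeks. In livers of 12 weeks its levels were -1.48, -1.65 and -1.64 in the knockout, against -1.43, -0.93 and -1.23 in the wild type. The genotypes were apart at both ages, in opposite directions, but of the genotype differences only the 1.85-fold rise at 6 weeks passed the threshold (0.89 ± 0.21, adjusted p = 0.0179; at 12 weeks -0.39 ± 0.21, adjusted p = 0.289). That call was lost in 2 of 12 cases with 1 array left out (up to 0.0604) and with slide as a block (0.54 ± 0.38, adjusted p = 0.5). Mcm4 was at 1.30, 0.98 and 0.96 in knockout livers of 6 weeks, against 0.23, 0.70 and 0.61 in wild type livers of 6 weeks, a 1.48-fold rise (0.56 ± 0.16, adjusted p = 0.031; lost in 4 of 12 cases, up to 0.102, and with slide as a block, 0.25 ± 0.27, adjusted p = 0.679). Its 12-week levels were 1.12, 0.79 and 1.08 in the knockout and 0.67, 0.95 and 1.02 in the wild type, which overlapped.

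Mcm6 fell 1.68-fold with age in the knockout (-0.75 ± 0.16, adjusted p = 0.0242; lost in 5 of 12 cases, up to 0.0913), where it was at 1.78, 1.64 and 1.78 at 12 weeks against 2.75, 2.29 and 2.41 at 6 weeks. In the wild type it was at 1.83, 2.32 and 2.46 at 12 weeks and 2.12, 2.23 and 2.30 at 6 weeks, with no call (-0.02 ± 0.16, adjusted p = 0.963). Cdt1, which loads the Mcm helicase onto origins, rose 1.88-fold with age in the knockout (0.91 ± 0.17, adjusted p = 0.0133; lost in 3 of 12 cases, up to 0.0584), with arrays at 1.45, 1.54 and 1.31 at 12 weeks against 0.77, 0.43 and 0.39 at 6 weeks. The wild type arrays of Cdt1 were at 1.07, 1.05 and 1.30 at 12 weeks and at 0.88, 1.39 and 0.70 at 6 weeks, and overlapped. Mcm2 and Mcm3 passed in no comparison, with genotype and age differences from -0.34 to 0.38. With age in the knockout, Mcm6 and Mcm7 were thus lower and Cdt1 higher.

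Rrm2, the regulated subunit of ribonucleotide reductase that makes DNA precursors, was at 2.002, 1.03 and 1.43 in knockout livers of 12 weeks, against 0.26, 0.34 and 0.69 in wild type livers of 12 weeks. At 6 weeks it was at 0.77, 0.24 and 0.49 in the knockout, against -0.03, -0.06 and -0.58 in the wild type. The knockout arrays were above the wild type arrays at both ages. Rrm2 was 2.08-fold higher in the 12-week knockout (1.06 ± 0.25, adjusted p = 0.0312) and rose 1.98-fold with age in the knockout (0.99 ± 0.25, adjusted p = 0.0429), calls lost in 4 and 8 of 12 cases with 1 array left out (up to 0.0902 and 0.135). At 6 weeks the difference was 0.72 ± 0.25 (adjusted p = 0.0652). The 12-week call was lost with slide as a block (0.97 ± 0.29, adjusted p = 0.0838). Pcna, the sliding clamp of the replication fork, and Tyms, the thymidylate synthase, passed in no comparison. Pcna lay between 3.34 and 3.72 and Tyms between -2.51 and -1.78 over all arrays.

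Foxm1, a transcription factor that drives genes of G2 and mitosis, was at -2.88, -2.41 and -2.42 in wild type livers of 12 weeks, against -3.46, -3.32 and -3.63 in wild type livers of 6 weeks. It rose 1.86-fold with age in the wild type (0.90 ± 0.17, adjusted p = 0.0107), a call lost with slide as a block (0.59 ± 0.20, adjusted p = 0.146). The knockout arrays were at -2.76, -3.14 and -3.03 at 12 weeks and at -2.89, -2.75 and -3.21 at 6 weeks, with no difference called (-0.03 ± 0.17, adjusted p = 0.953). At 6 weeks the knockout stood above the wild type with no overlap and an adjusted p of 0.0504 (0.52 ± 0.17). E2f1, a transcription factor of S phase genes, lay between -0.82 and -0.27 with no call.

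Among the mitotic kinases, Aurka, the aurora kinase of the spindle poles, was at -1.49, -1.72 and -1.75 in knockout livers of 6 weeks, against -2.94, -2.53 and -2.54 in wild type livers of 6 weeks. Its 12-week levels were -1.39, -1.98 and -1.91 in the knockout and -1.78, -1.31 and -0.87 in the wild type. The genotypes were apart at 6 weeks and overlapped at 12. Aurka was 2.03-fold higher in the 6-week knockout (1.02 ± 0.23, adjusted p = 0.0137) and rose 2.56-fold with age in the wild type (1.35 ± 0.23, adjusted p = 0.00724). Both calls held with any single array left out and were lost with slide as a fixed block (0.33 ± 0.34, adjusted p = 0.662, and 0.90 ± 0.27, adjusted p = 0.105).

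Plk1, the polo-like kinase of mitosis, was at -2.30, -2.84 and -3.28 in knockout livers of 12 weeks, against -2.11, -1.31 and -0.80 in wild type livers of 12 weeks. It was at -2.29, -2.94 and -2.67 in knockout livers of 6 weeks, against -0.02, -3.90 and -3.03 in wild type livers of 6 weeks. Replicate 1 of the 6-week wild type stood apart as the highest of all 12 arrays. No comparison called Plk1 over all arrays. Without that replicate the rise with age in the wild type was 2.06 (adjusted p = 0.028) and the difference between ages was -2.24 (adjusted p = 0.0434), against 0.91 (adjusted p = 0.509) and -1.09 (adjusted p = 0.595) with it. Birc5 (survivin) and Cdca8 (borealin), partners of aurora B at the centromere, passed in no comparison. The 2 tested Cdca8 probes differed by genotype at 6 weeks by 0.43 and -0.07. The tested Birc5 probe lay between -0.93 and 0.96, and the 2 other Birc5 probes were well above background on 6 and 5 of the 12 arrays and were not tested.

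Tpx2, which activates Aurka on the spindle, and Cenpe, a kinetochore motor, were dim. Tpx2 was at -5.31, -5.78 and -4.91 in knockout livers of 12 weeks against -3.88, -3.85 and -2.95 in wild type livers of 12 weeks, and at -4.18, -4.01 and -4.14 in knockout livers of 6 weeks against -6.43, -5.96 and -5.47 in wild type livers of 6 weeks. It was not well above background on any 12-week knockout or 6-week wild type array. Against the lowest signal that counts as above background there, Tpx2 was at least 1.95-fold lower in the 12-week knockout (adjusted p = 0.00975, limma), at least 1.06-fold higher in the 6-week knockout, where 2 of 3 arrays measured it (adjusted p = 0.00358), and rose at least 1.55-fold with age in the wild type (adjusted p = 0.00203). The adjusted p-values belong to limma differences of the printed levels, background signals included, and not to these bounds. Only the 12-week wild type, its brightest group, had the probe above background on all 3 arrays. That group alone admitted it to testing, so its differences from that group are not read as support. In the knockout it fell at least 1.33-fold with age (adjusted p = 0.0431; lost in 8 of 12 cases with 1 array left out, up to 0.153). The second Tpx2 probe was above background on 6 arrays but never on all 3 of a group, and with it in place of the tested probe no comparison was called: the values were -0.32 at 6 weeks, -0.56 at 12 weeks, -0.32 and -0.56 with age in the wild type and the knockout, and -0.24 for the difference between ages. With normexp background correction, the tested probe lost its calls at 12 weeks (-0.23, adjusted p = 0.155) and with age in the knockout (-0.19, adjusted p = 0.307). With slide as a block the 6-week call of Tpx2 was lost (adjusted p = 0.237).

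Cenpe was at -2.44, -2.88 and -2.91 in knockout livers of 6 weeks, against -4.88, -3.89 and -3.87 in wild type livers of 6 weeks, none of which was above background. At 12 weeks it was at -2.42, -3.80 and -3.25 in the knockout and -2.60, -2.17 and -1.49 in the wild type. It was at least 2.49-fold higher in the 6-week knockout (adjusted p = 0.028; lost in 4 of 12 cases, up to 0.0887) and rose at least 3.93-fold with age in the wild type (adjusted p = 0.0111). Slide as a block lost both calls (adjusted p = 0.651 and 0.146).

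Prc1, which bundles the microtubules of the late spindle for cytokinesis, was at -1.90, -2.20 and -2.37 in knockout livers of 6 weeks, against -3.54, -3.57 and -2.92 in wild type livers of 6 weeks. In livers of 12 weeks its levels were -1.97, -2.62 and -2.65 in the knockout, against -1.85, -1.55 and -0.64 in the wild type. The genotypes were apart at both ages, in opposite directions. Prc1 rose 2.28-fold in the 6-week knockout (1.19 ± 0.32, adjusted p = 0.0255; lost in 4 of 12 cases, up to 0.0821) and 3.99-fold with age in the wild type (1.997 ± 0.32, adjusted p = 0.00556), and its 12-week genotype difference was -1.07 ± 0.32 (adjusted p = 0.0646). With slide as a block the 2 calls were lost (0.43 ± 0.52, adjusted p = 0.723, and 1.49 ± 0.41, adjusted p = 0.0857).

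Kif20a, a kinesin of the spindle midzone, was at -2.75, -2.19 and -1.52 in wild type livers of 12 weeks, against -4.44, -3.73 and -2.83 in wild type livers of 6 weeks, with 1 array of 6-week wild type above background. The rise was called (1.51 ± 0.41, adjusted p = 0.0483), but its size rests on arrays near background, and it was lost in 10 of 12 cases with 1 array left out (up to 0.139) and with slide as a block (adjusted p = 0.422). Its knockout arrays were at -2.43, -2.50 and -3.14 at 12 weeks and -2.67, -3.26 and -3.20 at 6 weeks. Cenpa, the centromeric histone, and Nusap1, a spindle microtubule protein, passed in no comparison.

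Cdc20, the activator of the anaphase-promoting complex, was at -0.79, 0.27 and 0.76 in wild type livers of 12 weeks, against -2.74, -2.54 and -1.65 in wild type livers of 6 weeks. The knockout arrays were at -1.003, -1.07 and -1.82 at 12 weeks and -0.79, -1.74 and -1.64 at 6 weeks. Cdc20 rose 5.26-fold with age in the wild type (2.39 ± 0.44, adjusted p = 0.00981) and differed by 0.09 ± 0.44 in the knockout (adjusted p = 0.944). With slide as a block the wild type call was lost (1.53 ± 0.51, adjusted p = 0.142). At 12 weeks the knockout was below the wild type without overlap (-1.38 ± 0.44, adjusted p = 0.08). The difference passed within slide 2 (-1.82 ± 0.36, adjusted p = 0.046), where the lowest 12-week wild type array is absent. Ube2c, the ubiquitin-conjugating enzyme of the same complex, was at -1.77, -1.68 and -0.95 in wild type livers of 12 weeks, against -2.63, -2.65 and -2.30 in wild type livers of 6 weeks, a 2.09-fold rise (1.06 ± 0.21, adjusted p = 0.0135; lost with slide as a block, 0.76 ± 0.28, adjusted p = 0.168). Its knockout arrays were at -1.56, -1.80 and -2.02 at 12 weeks and -2.10, -2.10 and -2.31 at 6 weeks.

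Mki67, the chromosome surface protein used as a marker of cycling cells, was at -1.04, -1.50 and -1.46 in knockout livers of 6 weeks, against -2.94, -2.95 and -2.08 in wild type livers of 6 weeks. Its 12-week levels were -1.40, -1.69 and -1.97 in the knockout and -1.58, -1.06 and -0.22 in the wild type, which overlapped. Mki67 rose in the 6-week knockout by 1.32 ± 0.34 on the log2 scale (adjusted p = 0.0233) and 3.26-fold with age in the wild type (1.71 ± 0.34, adjusted p = 0.0148), calls lost in 3 and 2 of 12 cases with 1 array left out (up to 0.0779 and 0.0537) and with slide as a block (0.38 ± 0.53, adjusted p = 0.766, and 1.08 ± 0.42, adjusted p = 0.197). Its second probe gave log2 differences of 1.49 and 1.69 in the same comparisons.

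The 8 members with no tested probe were Ccne2, Cdc6, Aurkb, Bub1, Bub1b, Ttk, Kif11 and Top2a. Their group means lay between -6.92 and -4.09. Ccne2, Cdc6, Aurkb, Bub1 and Ttk were not well above background on any array. Kif11, the kinesin that pushes spindle poles apart, was above background on 1 array of 12-week wild type. Bub1b, a spindle checkpoint kinase, was above background on 1 array each of 3 groups, and Top2a, the topoisomerase that untangles sister chromosomes, on 1 array of 12-week wild type and 1 of 6-week knockout. No genotype or age difference can be given for these 8.

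The slide was then entered as a block. Its term is set by a single array of slide 1, the first of 12-week wild type, against the 2 of that group on slide 2. At 6 weeks the members called fell to 1 (Ccne1) and the median log2 difference to 0.00, while 1.41% of all genes were higher and 1.25% lower. In the wild type age comparison 2 members kept their call, Ccnb1 (1.74 ± 0.37, adjusted p = 0.0404) and Tpx2 (adjusted p = 0.041). Of all genes, 1.55% were higher and 1.74% lower there. Tpx2 was admitted to testing by the 12-week wild type alone, so its calls that involve that group, here and below, are not read as support. At 12 weeks 7 members were lower and none higher in the knockout (limma): Ccnb1, Ccnb2, Ccnd1, Mcm6, Prc1, Tpx2 and Cdc20, beside 2.21% of all genes lower. Within slide 2 alone, with 3 knockout arrays against 2 wild type arrays, the calls at 12 weeks were Ccnb2 (-1.05), Ccnd1 (-2.37), Plk1 (-1.76), Tpx2 (dim in the knockout, no value given) and Cdc20 (-1.82), all lower in the knockout, where 1.25% of all genes tested were lower. At 12 weeks the block, slide 2 alone and leaving out replicate 1 of the wild type all rest on the same 2 wild type arrays. They give the same differences and are not separate results. The array set aside was the lowest of its group in 12 of 13 mitotic genes. The difference between ages was called with the block for Ccnb1 (-1.84 ± 0.45, adjusted p = 0.0426), Ccne1 (1.47 ± 0.25, adjusted p = 0.0125), Mcm7 (-0.66 ± 0.14, adjusted p = 0.0235) and Tpx2 (adjusted p = 0.0103). Of all genes, 4.04% were called positive there and 2.88% negative.

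**Figure D5:**
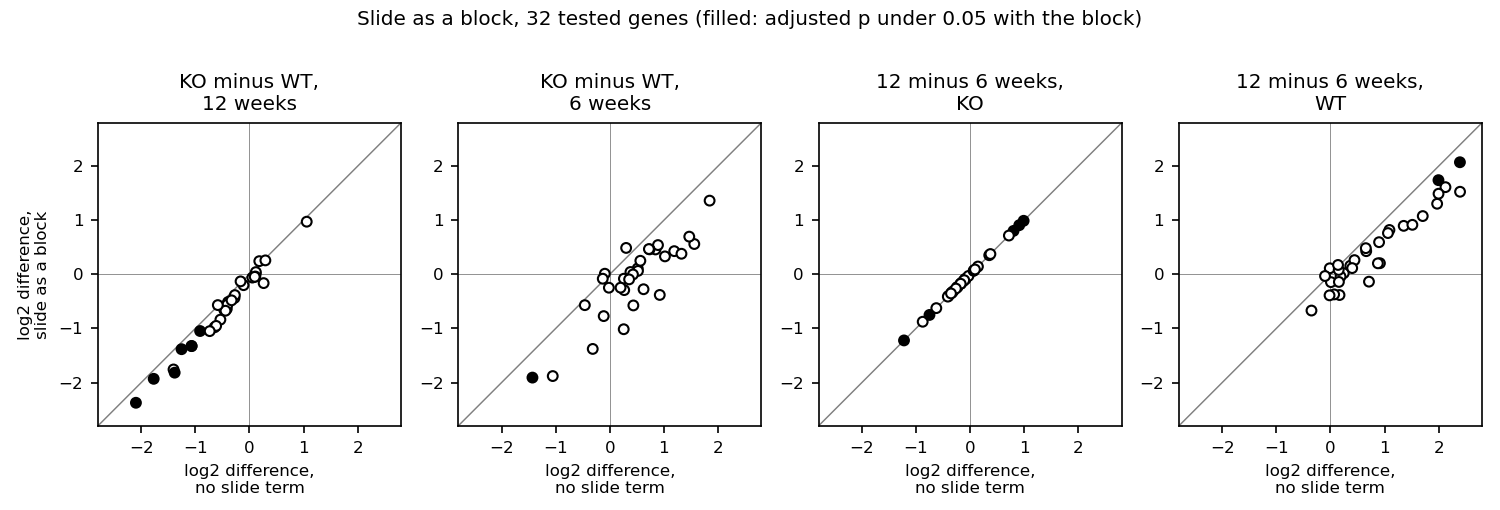
Log2 difference of each tested member without a slide term (horizontal) and with slide as a block (vertical) in 4 comparisons; the grey diagonal marks equal values and filled points have an adjusted p under 0.05 with the block. The medians over the genes move to 0.00 at 6 weeks and 0.20 in the wild type age panel, and the points of the knockout age panel lie on the diagonal.

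Other genes of the cycle were read from lists of G1/S control, DNA replication and mitosis genes. Unlike those of the members, the calls of these lists are given without the slide as a block and without arrays left out. With that block the calls over all genes fell from 4661 to 588 at 6 weeks and from 1999 to 728 with age in the wild type. The 21 tested genes of G1/S control (of 22) had 2 higher and 2 lower at 6 weeks in the knockout, 9.52% each way, near the 11.7% and 9.35% of all genes. The kinase inhibitor Cdkn2b averaged -3.34 in knockout livers of 6 weeks and -4.75, with no array well above background, in wild type livers of 6 weeks, so that it was at least 1.81-fold higher (adjusted p = 0.000874). The inhibitors Cdkn1c (p57) and Cdkn2c (p18) fell by 1.01 ± 0.14 (adjusted p = 0.00114) and 0.82 ± 0.12 (adjusted p = 0.00168) on the log2 scale. At 12 weeks 2 were higher and 1 lower in the knockout (9.52% and 4.76%, beside 5.65% and 2.56% of all genes). The inhibitors Cdkn1b (p27, 0.44 ± 0.09, adjusted p = 0.0204) and Cdkn2d (p19, 0.78 ± 0.17, adjusted p = 0.023) rose, and E2f3 fell (-0.30 ± 0.08, adjusted p = 0.0421). With age, 2 rose and 2 fell in the wild type (9.52% each way, beside 4.61% and 4.43% of all genes). Among them were Cdkn2b (at least 2.79-fold higher, adjusted p = 0.000247), Cdkn2c (-1.09 ± 0.12, adjusted p = 0.000699) and Cdkn1c (-0.96 ± 0.14, adjusted p = 0.00311). In the knockout 3 rose and none fell with age (limma, 14.3% higher, beside 3.98% of all genes): Cdkn1b (0.48 ± 0.09, adjusted p = 0.015), Cdkn2d (0.74 ± 0.17, adjusted p = 0.0286) and the growth regulator Myc, which averaged 1.37 at 12 weeks and -1.64 at 6 weeks (8.09-fold, adjusted p = 0.0294).

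On the DNA replication list (20 of 22 tested), 5 genes rose and 3 fell in knockout livers of 6 weeks (25% and 15%, beside 11.7% and 9.35% of all genes). Among those that fell were the chromatin assembly subunit Chaf1b (-0.61 ± 0.11, adjusted p = 0.00464) and geminin (Gmnn), the inhibitor of Cdt1 (-0.80 ± 0.15, adjusted p = 0.00585). The list's median difference was 0.05. At 12 weeks none was higher (limma) and 2 were lower (10%, beside 2.56% of all genes). These were Dbf4, the activator of the Cdc7 kinase (-1.05 ± 0.16, adjusted p = 0.00517), and the clamp loader subunit Rfc3 (-0.34 ± 0.09, adjusted p = 0.0372). With age 1 rose and 3 fell in the wild type (5% and 15%, beside 4.61% and 4.43% of all genes), and 3 fell in the knockout (15%, beside 2.93%).

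The mitosis list had 22 of 34 genes tested, of which 3 rose and 1 fell in knockout livers of 6 weeks (13.64% and 4.55%, beside 11.7% and 9.35% of all genes). Wee1, the kinase that holds Cdk1 inactive and a known output gene of the circadian clock in mouse liver, averaged -2.41 in knockout livers of 6 weeks and 1.45 in wild type livers of 6 weeks, a 14.5-fold fall (adjusted p = 0.000108). At 12 weeks it averaged 0.76 in the knockout and -0.58 in the wild type, a 2.53-fold rise (adjusted p = 0.0388). Wee1 thus differed by genotype in opposite directions at the 2 ages. Ccnf (1.60 ± 0.28, adjusted p = 0.00419), a substrate adaptor of a ubiquitin ligase, and the kinesin Kif22 (0.95 ± 0.17, adjusted p = 0.00449) rose in the 6-week knockout. At 12 weeks 1 was higher and 3 lower (4.55% and 13.64%, beside 5.65% and 2.56% of all genes), including Nek2 (-0.89 ± 0.15, adjusted p = 0.00863), a centrosome kinase, and Spc25 (-1.02 ± 0.22, adjusted p = 0.0237), a kinetochore subunit. With age 4 rose and 1 fell in the wild type (18.2% and 4.55%, beside 4.61% and 4.43%), where Wee1 fell 4.08-fold (adjusted p = 0.00673) and Kif22 (0.97 ± 0.17, adjusted p = 0.00807) and Cdca3 (1.11 ± 0.23, adjusted p = 0.0182) rose. In the knockout 2 rose and 1 fell with age (9.09% and 4.55%, beside 3.98% and 2.93% of all genes). Wee1 was 8.98-fold higher at 12 weeks (adjusted p = 0.000879), Hmmr was higher (0.52 ± 0.13, adjusted p = 0.0388) and Cks1b lower (-0.71 ± 0.17, adjusted p = 0.0365).

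Markers of other cell types moved with some of these comparisons, and their part in the members' results was not tested. Over all genes tested, 11.7% were higher and 9.35% lower in the knockout at 6 weeks, and 5.65% and 2.56% at 12 weeks. With age in the wild type the shares were 4.61% and 4.43%, and for the difference between ages 5.58% and 4.76%. Each marker list has 5 to 8 tested genes, so a few calls are not read as results about a list. The marker calls, too, are given without the slide as a block and without arrays left out. At 6 weeks and with age in the wild type they share the split of the arrays by slide. Of 8 erythroid markers 5 were tested, and the summed signal of the 8, relative to the 75th percentile, was 40.8 to 56.4 in 12-week knockout, 35.7 to 40.2 in 12-week wild type, 44.6 to 52.9 in 6-week knockout and 18.5 to 22.2 in 6-week wild type livers. That sum is set mostly by Alas2, the brightest probe of the list, and 2 of the 5 tested markers were above and 3 below the wild type at 6 weeks (median -0.27). Alas2, the heme synthesis enzyme of red cell precursors, averaged 5.56 in knockout livers of 6 weeks and 4.10 in wild type livers of 6 weeks (1.46 ± 0.13, adjusted p = 0.000132), while Klf1, the erythroid transcription factor, fell there (-0.91 ± 0.23, adjusted p = 0.0218). Klf1 rose in the 12-week knockout (1.26 ± 0.23, adjusted p = 0.0116), and Slc4a1 rose at both ages (0.41 ± 0.12 at 6 weeks, adjusted p = 0.0329). The red cell membrane gene Rhd was above background on 1 array.

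Of the 8 neutrophil and myeloid precursor markers 5 were tested, of which 3 rose and 1 fell in knockout livers of 6 weeks, including S100a9 (0.90 ± 0.09, adjusted p = 0.000177) and S100a8 (0.74 ± 0.11, adjusted p = 0.00169), while Elane fell (-0.63 ± 0.13, adjusted p = 0.00943). Their summed signal was 6.36 to 6.58 in 12-week knockout, 6.75 to 8.42 in 12-week wild type, 6.49 to 7.32 in 6-week knockout and 7.12 to 8.55 in 6-week wild type livers, with Ngp above background on no array and Ltf and Mpo on 1 each. The sum is set mostly by Elane, the brightest of the list, while 4 of the 5 tested markers were above the wild type at 6 weeks. The 8 NK and T cell markers, 6 of them tested, summed to 37.2 to 48.1 in 12-week knockout and 62.1 to 102 in 12-week wild type livers, and to 46.1 to 62.1 in 6-week knockout and 65.6 to 67.4 in 6-week wild type livers. This sum is set mostly by Cd4, the brightest of the list. All 6 tested markers were below the wild type at 12 weeks (median -0.36), 2 of them called. At 6 weeks 5 were below and 1 above (median -0.20), with 1 called. Cd3g, of the T cell receptor complex, fell in the 12-week knockout (-1.77 ± 0.19, adjusted p = 0.00148) and in the 6-week knockout (-0.66 ± 0.19, adjusted p = 0.0328), and Cd4 fell in the 12-week knockout (-0.96 ± 0.19, adjusted p = 0.0179). Cd3g was well above background on 9 of the 12 arrays. It averaged -4.59 in the 12-week knockout, where the lowest levels scored above background were -4.56 to -4.47. The size of its 12-week fall thus rests on signals near background. Jchain, made by plasma cells, fell in the 12-week knockout (-1.49 ± 0.20, adjusted p = 0.00342), the single call among 5 B and plasma cell markers there, whose sum was 1.36 to 1.49 in 12-week knockout and 1.94 to 2.64 in 12-week wild type livers. Of the 6 Kupffer cell and macrophage markers none was called at 6 weeks (limma), where 4 were above and 2 below the wild type (median 0.14). All 6 were below the wild type at 12 weeks (median -0.40), with 1 called (Timd4, -0.81 ± 0.22, adjusted p = 0.04996). Marco, not called, averaged 1.84 in the 12-week knockout and 3.28 in the 12-week wild type. The sums were 66.3 to 112 in 12-week knockout and 103 to 136 in 12-week wild type livers. Of the 8 hepatocyte markers, 2 were higher at 6 weeks, and 1 was higher and 1 lower at 12 weeks, in the knockout. The sinusoidal endothelial markers (6 of 6 tested) had 1 lower at 6 weeks and 1 higher at 12 weeks, and the stellate cell and cholangiocyte markers (6 of 7 tested) had 1 lower at 6 weeks. In the comparisons where the most members were called, 2 of the 5 neutrophil and myeloid markers rose with age in the wild type (S100a8 and S100a9). A negative difference between ages was called for 3 (S100a8, S100a9 and Camp). The 6 Kupffer cell and macrophage markers were all above 0 with age in the wild type (median 0.36) and below 0 for the difference between ages (median -0.59), with no call among them there (limma). Of the 5 erythroid markers 1 rose and 2 fell with age in the wild type, and the difference was called positive for 1 and negative for 1. Jchain rose with age in the wild type (1.85 ± 0.20, adjusted p = 0.000661) and was negative for the difference, as was Cd3g.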

How the data were processed

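Per the file headers, each array was quantified by the authors with Agilent Feature Extraction 10.7.3.1, and the deposited processed signal is an intensity after subtraction of a spatially fitted background, in which the software put surrogate values in place of the lowest, and arrays were not scaled to each other. The mean spot and background intensities, deposited beside it, served an alternative. Values in the table deposited for the whole series equal this intensity to within 0.497%, so its scale is linear and uncentred, with column medians from 21.6 to 29.5.

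Control spots and outlier spots were left out. A level is log2 of the deposited processed intensity minus the array's 75th percentile. The tested probes, 29804 in all (53.5%), were well above background on each array of some group, and a gene took its tested probe with the highest mean. Gene names came from the files and were updated through RefSeq. Group means over the 12 arrays were fitted in 1 model using R 4.3.3 and limma 3.58.1, by lmFit then eBayes with 8 residual degrees of freedom, with p-values adjusted by Benjamini-Hochberg over the 22128 genes and a threshold of 0.05. The fit was tested on simulated data. Errors are standard errors. A fold marked "at least" sets the bright group's mean against, per array of the dim group, whichever was higher, the lowest signal scored above background or the signal of the probe itself. The adjusted p beside such a fold is that of the limma difference of the levels, not of the bound.

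The members and lists were chosen with earlier results of these data known. The rule for names took every member past the threshold in a comparison, with its value on each array, and up to 3 genes of each other list with the smallest p among those past the threshold. Alternatives covered the background correction, the scaling, the filter on dim probes, the probe summary, the slide, the replicate number as a block, the arrays in the fit and the source of the values. Promoter windows and their motifs were chosen after the levels were seen. Some genes of the other lists are not reported here.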

Additional observations from a re-analysis of the deposited data

Results flagged for a closer look

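The genotype difference itself differed between ages for 13 members (limma, difference of the genotype differences, 12 weeks minus 6 weeks). Of all genes tested, 10.3% were called there. The difference was negative for the mitotic cyclins Ccna2 (-2.21 ± 0.48 SE, adjusted p = 0.0173), Ccnb1 (-2.10 ± 0.37, adjusted p = 0.00637) and Ccnb2 (-1.43 ± 0.32, adjusted p = 0.0187). It was also negative for Aurka (-1.46, adjusted p = 0.0188), Cenpe (-2.54, adjusted p = 0.0187), Prc1 (-2.26, adjusted p = 0.0114), Tpx2 (-3.61, adjusted p = 0.0012), Cdc20 (-2.30, adjusted p = 0.0406) and Mki67 (-2.06, adjusted p = 0.0236). The replication genes Mcm5 (-1.29, adjusted p = 0.0243) and Mcm7 (-0.84, adjusted p = 0.00485) and the transcription factor Foxm1 (-0.93, adjusted p = 0.0329) had negative values too. Ccne1 was the single member called with a positive value (1.15 ± 0.24, adjusted p = 0.0149), since its fall was smaller at 12 weeks (-0.28, not called) than at 6 weeks (-1.43). Tpx2 and Cenpe had a group with no array above background, so their values depend on signals near background. The tested Tpx2 probe was admitted by the 12-week wild type alone, so its value, which includes that group, is not read as support. With no filter on dim probes, a brighter probe of Tpx2 took its place and gave -0.24 (adjusted p = 0.879), and with normexp correction the tested probe gave -0.66 (adjusted p = 0.00926). With slide as a block the calls were Ccnb1, Ccne1, Mcm7 and Tpx2, and that block rests on the single slide 1 array of the 12-week wild type. The part of the slide in the other 9 cannot be told apart from genotype at 6 weeks or from age in the wild type. The calls of Cdc20 and Foxm1 were lost in 10 and 8 of 12 cases with 1 array left out, those of Mcm5 and Mki67 in 5 each.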

How the results depend on the processing

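The members called were 13 for knockout against wild type at 6 weeks, 5 at 12 weeks, 13 and 6 between ages in the wild type and the knockout, and 13 for the difference between ages. The shares of all genes called were 21.1%, 8.21%, 9.03%, 6.91% and 10.3%. With no filter on dim probes 6, 2, 10, 1 and 8 members were called, where more probes share the adjustment. The shares of all genes were then 8.92%, 2.29%, 3.41%, 2.02% and 3.72%. Slide as a fixed block gave 1, 7, 2, 6 and 4, and over all genes 588, 1283, 728, 1835 and 1533 calls in place of 4661, 1817, 1999, 1529 and 2288. Slide as a random block (correlation 0.325) gave 3 at 6 weeks, and 5, 9, 6 and 11 in the others. The shares of all genes were 5.55%, 7.46%, 4.88%, 8.20% and 8.87%. Fits of only the arrays of the groups compared called 16 members at 6 weeks, 1 at 12 weeks, and 2 and 6 between ages in the wild type and the knockout. The shares of all genes in these fits were 24.6%, 1.71%, 1.79% and 6.44%, and the cause was not tested. Leaving out 1 array in turn gave 6 to 15 calls at 6 weeks, 2 to 7 at 12 weeks, 10 to 16 and 0 to 6 between ages in the wild type and the knockout, and 9 to 15 for the difference between ages. The cause of the slide's effect was not tested. Over all genes, the counts moved by over 1.5 times were also 1227 and 1079 with the random block (6 weeks, wild type ages), 825, 1230, 730 and 1341 with no filter (12 weeks, wild type ages, knockout ages, difference), 378 and 395 with only the groups compared (12 weeks, wild type ages) and 733 within slide 2 (12 weeks). Leaving out 1 array gave 2549 to 6204, 680 to 2073, 980 to 3811, 628 to 1835 and 1562 to 3318 genes. For the members, the lowest counts were without replicate 1 of the 6-week wild type or of the 6-week knockout (6 each, at 6 weeks), without replicate 3 of the 12-week knockout (2, at 12 weeks) and without replicate 3 of the 6-week knockout (0, between ages in the knockout). Normexp, quantile and median scaling, every probe tested and the value table kept each count within 1.5 times. Tpx2 turned to -0.32 both at 6 weeks and with age in the wild type with no filter, where another probe of the gene is the brighter one. The replicate block gave 10, 4, 12, 5 and 11 calls, beside 18.4%, 6.43%, 7.57%, 5.92% and 9.11% of all genes. The numbers are not known to pair animals, since same-numbered arrays correlated from -0.06 to 0.18 in their deviations. Dim probes limit 8 members, which have no test.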
